A study of Mus musculus with 16 samples.

Results

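Serum response factor (SRF, gene Srf) and 9 genes of the actin cytoskeleton and matricellular proteins that it is known to control were followed in mouse blastocysts treated with inhibitors of MAP kinase pathways. The genes were Srf, Cnn2, Vcl, Fhl2, Tpm1, Tagln2, Myh9, Actb, Ccn1 and Ccn2, and their members on the arrays were all probe sets whose platform annotation names 1 of these genes and no other. There were 28 such probe sets, of which 3 were Affymetrix actin controls and 25 stood among the 45037 ordinary probe sets measured in every sample. The 10 genes stood among 18193 genes named alone by at least 1 probe set. Of the 25 ordinary probe sets, 24 were bright enough to be tested and 1, a dim Tpm1 probe set, was not. The brightest probe set of each gene on the 430 2.0 arrays stood for the gene, and all 10 of these were tested.

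The series holds total RNA from mouse blastocysts in 4 groups of 3 samples. The first group, labelled WT, has no treatment named and is called the control here. The other groups had received 20 µM SB203580, an inhibitor of p38 MAP kinases, 25 µM SP600125, an inhibitor of JNK, or 20 µM U0126, an inhibitor of MEK, the kinase that activates ERK. All groups share the organism and the embryo stage. The labels used here give no strain, no treatment time, no solvent for the controls and no number of embryos per sample. Replicate 1 of each group was read on a pair of arrays, 430A and 430B, after small sample labelling, and replicates 2 and 3 on 430 2.0 arrays after two-cycle labelling. Every comparison below was therefore taken within an array type.

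SRF is a MADS-box transcription factor that binds the CArG box. Myocardin-related transcription factors (Mrtfa and Mrtfb) bind monomeric actin and bring SRF to cytoskeletal genes when actin polymerises, whereas ternary complex factors (Elk1, Elk3 and Elk4) are phosphorylated by MAP kinases and bring it to immediate early genes such as Fos and Egr1. In the blastocyst the outer trophectoderm is an epithelium with a contractile actin cortex, and Ccn1 and Ccn2 are also well known targets of YAP and TEAD, which act in that layer.

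Promoter sequence is shown first, because among the 8 genes with a promoter window the 4 with a CArG box had the lowest SB203580 values by their brightest probe sets. This order depends on the probe set. For Srf the dimmer probe set read -0.03, and Ccn2, with no window, had the same value as Vcl (-0.38). Ccn1, with a window and no box, stood close to Vcl at -0.35 ± 0.24, and its next brightest probe set read -0.68 ± 0.33. RefSeq windows (build GRCm38.p6) from 250 bases before to 50 bases after a transcription start were held for 8 of the 10 genes, in 9 windows. A CArG box, CC and GG around 6 bases that are each A or T, was searched in a form that reads the same class on both strands. It was found in 4 of these 8 genes (Srf, Cnn2, Vcl and Fhl2) and in 1.81% of the 27025 genes with a window of this length. The genes are known as SRF targets, so this share is no independent observation. The stretches below lie upstream of the start on the gene's own strand, 5′ to 3′, with the CArG boxes in capitals.
Srf, chr17:46556170-46556289, minus strand: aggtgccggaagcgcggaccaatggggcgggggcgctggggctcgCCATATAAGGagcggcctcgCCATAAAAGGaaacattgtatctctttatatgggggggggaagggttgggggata
Cnn2, chr10:79988499-79988598, plus strand: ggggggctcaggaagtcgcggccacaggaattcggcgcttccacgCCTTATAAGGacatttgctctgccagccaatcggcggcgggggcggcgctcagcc
Vcl, chr14:20929148-20929225, plus strand: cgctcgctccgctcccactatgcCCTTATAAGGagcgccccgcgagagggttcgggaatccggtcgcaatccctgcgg
Fhl2, first start, chr1:43196803-43196902, minus strand: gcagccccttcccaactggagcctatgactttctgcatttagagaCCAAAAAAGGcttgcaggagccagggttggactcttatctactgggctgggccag
Fhl2, other start, chr1:43163962-43164037, minus strand: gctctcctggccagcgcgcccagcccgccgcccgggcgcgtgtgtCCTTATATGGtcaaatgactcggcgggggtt

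The Srf window holds 2 boxes, which end 72 and 52 bases before the start. The Cnn2 box ends 46 bases before the start and the Vcl box 217 bases before it, with the same letters, CCTTATAAGG, in both genes. Fhl2 has a box at each of its starts, at 86 and 21 bases. The hexamer GGAATG, which TEAD factors bind and which begins with the Ets core GGAA, was searched on both strands and lay in 4 of the 8 genes (Tagln2, Ccn1, Tpm1 and Vcl) against 16.6% of all genes with a window. For Ccn1, the gene that U0126 lowered, the hexamer is on the opposite strand and is in capitals as it reads on the gene's strand.
Ccn1, chr3:145650038-145650133, minus strand: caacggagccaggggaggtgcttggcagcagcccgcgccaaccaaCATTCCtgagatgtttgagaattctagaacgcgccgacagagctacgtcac

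A match is a description of letters in a window and shows no binding. Inexact matches and sequence outside the windows were not searched, so a gene without a match may hold a box elsewhere. The motif search was chosen after the expression values were known.

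Signal is in arbitrary units on a linear scale on which each array has a trimmed mean of 500, and n is 3 samples a group throughout. Changes are on the log2(signal + 12.6) scale with their standard error, and a fold on this scale understates the change of dim genes. Calls are limma's at a Benjamini-Hochberg adjusted p under 0.05 over the 27022 probe sets tested. At an unadjusted p under 0.05, limma had 2528 of them with SB203580, 2303 with SP600125 and 3246 with U0126 against the control. Between inhibitors the numbers were 2875 for SB203580 against SP600125, 3591 for SB203580 against U0126 and 4693 for SP600125 against U0126. Counts at an unadjusted p below are to be read against these. Nothing in the labels ties a replicate to an embryo pool or culture of its own, so each p-value reflects the scatter of these samples, which may be technical. The small number of arrays limits the precision. In RNA from whole blastocysts, fewer cells of a type and less RNA per cell cannot be told apart.

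Markers of cell types were read against the filter on brightness, which 27022 of 45037 probe sets passed. All 9 trophectoderm, 6 inner cell mass and 8 primitive endoderm markers were bright enough to be tested. Of 6 markers of fibroblasts and smooth muscle 2 were, with Col1a1, Col3a1, Myh11 and Des under the filter. Several of the 10 genes are strongly expressed in such contractile cells. Of 6 cumulus, 5 uterine or oviduct and 5 blood markers, 2, 4 and 2 were tested, so the filter does not set the embryo's markers apart from the uterine or oviduct ones. Pairs of samples read on 1 array type correlated at 0.932 to 0.965, and pairs across types at 0.7 to 0.739 (log2 signal, over probe sets). Median signal on the 430 2.0 arrays was 77.7 and 83.0 with U0126 and 61.1 to 68.9 in the other groups.

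With SB203580, Cnn2, which encodes calponin 2, fell to 58.5% of the control. Srf, Vcl and Fhl2 had lower signal than the control in all 3 samples without passing the test. The abundant actin and myosin genes Actb and Myh9 and the calponin relative Tagln2 had values between -0.06 and 0.19 on the log2 scale by their brightest probe sets. Of the 10 genes 1 was called, against 0.389% of all probe sets tested in that comparison. In 6 of the 10 (Srf, Cnn2, Vcl, Fhl2, Ccn1 and Ccn2) every SB203580 signal lay below all control signals of its array type, against 11.9% of probe sets tested, and in 0 of 10 every signal lay above, against 11.6%. The median change of the 10 was -0.36, and -0.37, -0.5 and -0.33 in replicates 1, 2 and 3, beside 0.01 over all probe sets tested. The genes were chosen with such values known, so the count and median describe them only.

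Cnn2 is an actin-binding protein that stabilises filaments and restrains myosin. Its control signals were 1970.0 on the 430A array and 3379 and 2762 on the 430 2.0 arrays. The SB203580 signals were 1248, 1722.5 and 1696. Each SB203580 sample was thus below the control of its own array type, with differences of -0.65, -0.82 and -0.84 on the log2 scale from the control mean. The fitted change was -0.77 ± 0.15 (limma, adjusted p = 0.0271). The call was lost on leaving out any 1 of the 6 samples, when the change ran from -0.86 to -0.66 and the adjusted p from 0.0555 to 0.158. On the 430 2.0 arrays alone it was -0.83 (limma, adjusted p = 0.112), and without an intensity trend in the variance model the adjusted p was 0.297.

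Srf itself had brightest signals of 667, 781 and 749 in the control and 412, 388 and 542 with SB203580. The groups did not overlap, and the change was -0.71 ± 0.19 (limma, adjusted p = 0.161), which did not pass. The name of that probe set, 1418255_s_at, marks probes shared by several transcripts. The other Srf probe set read 262, 249 and 237 in the control and 273.5, 231 and 231 with SB203580, a change of -0.03 ± 0.3. The pair of probe sets therefore differ in their estimate for Srf, with overlapping 95% intervals of -1.12 to -0.3 for the brighter and -0.66 to 0.61 for the dimmer one.

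Fhl2, a LIM-domain protein that binds SRF and is itself an SRF target, had control signals of 251, 290.1 and 237. The SB203580 signals were 115, 156 and 199, all lower, with a change of -0.71 ± 0.27 (adjusted p = 0.375 in limma). Vcl encodes vinculin, which links integrins and cadherins to actin. Its signals were 2401, 5422 and 5433 in the control and 2223, 3528 and 4050.3 with SB203580, a change of -0.38 ± 0.13 (limma, adjusted p = 0.32). The replicate 1 difference was -0.11, and those of replicates 2 and 3 were -0.62 and -0.42, so the Vcl difference lay mostly on the 430 2.0 arrays. A second Vcl probe set had signals from 2.1 to 79.1 over all samples, near the added constant, and carries little information.

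The other structural genes overlapped the control. Tpm1, a tropomyosin that lies along actin filaments, read 1235, 3755 and 4984 in the control and 1337, 3018 and 3532.5 with SB203580, overlapping groups with a change of -0.23 ± 0.17. Tagln2, transgelin 2, an actin-bundling relative of calponin, had a value of -0.04 ± 0.1, with control signals of 3569, 5243 and 5896 and SB203580 signals of 3399.9, 5381 and 5492. Actb, cytoplasmic beta-actin, had a change of -0.06 ± 0.11. Its sign turned to 0.09 on the 430 2.0 arrays alone, where the signals were 35242 and 39080.0 in the control and 37629 and 41215 with SB203580. On the 430A array the SB203580 sample was lower, 12619 against 16142.

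Myh9 encodes the heavy chain of non-muscle myosin IIA, the motor of the actin cortex. Its probe sets did not move together. The brightest read 3799, 19486 and 22202 in the control and 5223, 20375 and 23025 with SB203580, a change of 0.19 ± 0.11 (limma, adjusted p = 0.659). A dimmer one, 1417472_at, was lower in all 3 SB203580 samples, with differences of -1.46, -0.25 and -0.22 and a change of -0.64 ± 0.22 (adjusted p = 0.311 in limma). Of the 5 Myh9 probe sets 3 had a negative SB203580 value and 2 a positive one, and none was called.

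Ccn1 and Ccn2 are secreted matricellular proteins that bind integrins. Ccn1 signals with SB203580 were 258, 524.5 and 653 against 342, 719 and 755 in the control, a change of -0.35 ± 0.24. For Ccn2 they were 244, 396 and 379 against 327, 491 and 511, a change of -0.38 ± 0.24. Both were below the control in every sample, and neither passed (limma, adjusted p = 0.728 and 0.687).

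**Figure D1:**
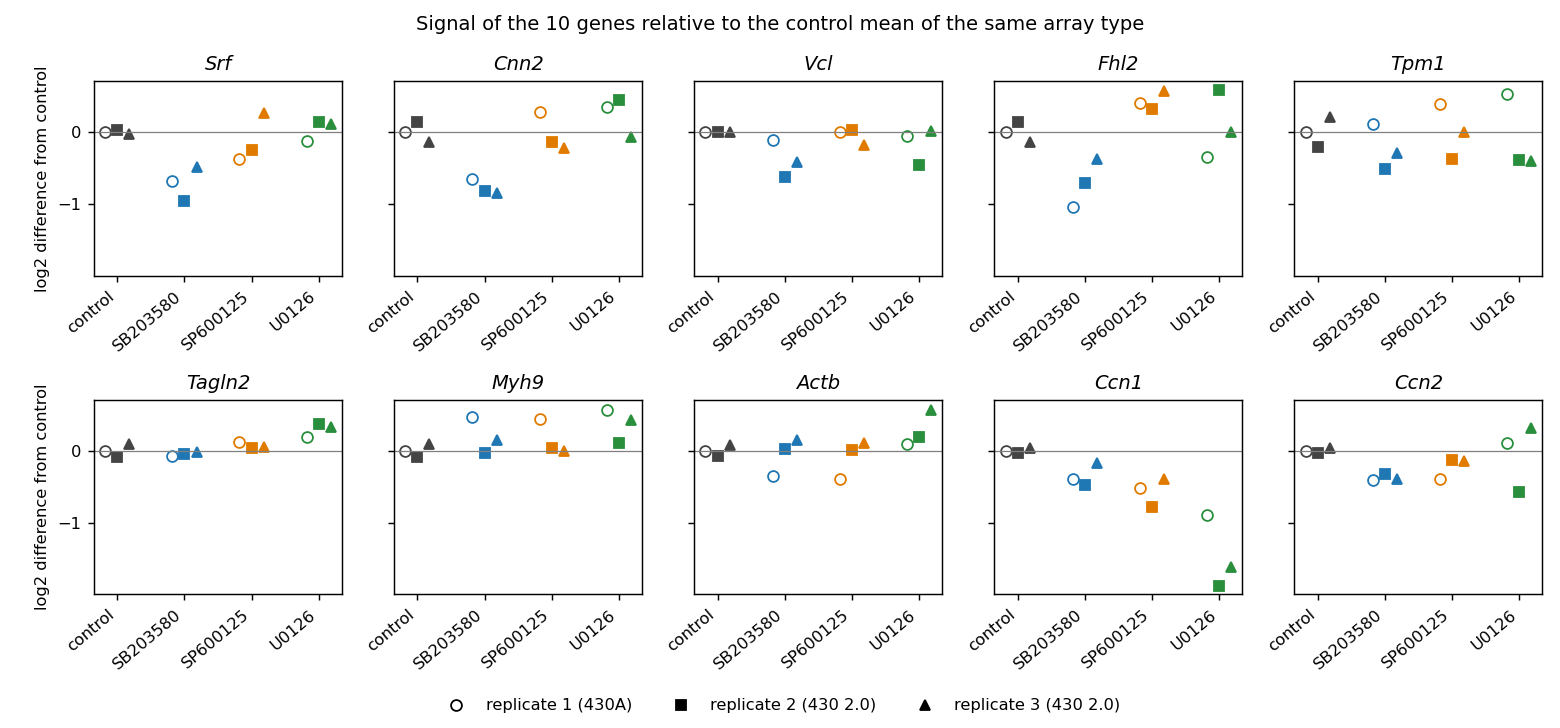
Log2(signal + 12.6) of the brightest probe set of each gene in every sample, as the difference from the control mean of the same array type (y axis), for the control and the 3 inhibitors (x axis); open circles are replicate 1 on 430A, squares and triangles replicates 2 and 3 on 430 2.0. All 3 SB203580 points lie below the control points for Srf, Cnn2, Vcl, Fhl2, Ccn1 and Ccn2. Within the Ccn1 panel the U0126 points lie lowest, at -0.89, -1.87 and -1.62. The replicate 1 control is 0 by construction.

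Summed marker signals of the SB203580 samples lay outside the control range for several lists, although no single marker was called. On the 430 2.0 arrays the summed signal of the 9 trophectoderm markers was 104826.0 to 111436 in the control and 94396 to 97314 with SB203580, with 0 of 9 called by limma, 4 at an unadjusted p under 0.05 and a median change of -0.2. Primitive endoderm markers summed to 35446 to 35797.5 in the control and 27947 to 31156 with SB203580, with 0 of 8 called, 5 at an unadjusted p under 0.05 and a median of -0.51. Inner cell mass markers summed to 8175.5 to 9080.4 and 9293 to 9887, with 0 of 6 called, 2 at an unadjusted p under 0.05 and a median of 0.3. The fibroblast and smooth muscle markers summed to 227 to 299.6 in the control and 217 to 244 with SB203580. Of the uterine and oviduct markers 4 of 4 tested had negative values (median -0.5, 0 called and 0 at an unadjusted p under 0.05 in limma), and the sums were 2112 to 2184 in the control and 1530.3 to 1883 with SB203580. The 2 tested blood markers had a median of 0.56, with 0 called, 1 at an unadjusted p under 0.05 and sums of 122 to 274.5 against 267.5 to 346. Cumulus markers summed to 225 to 256 and 201 to 339.9. The part of these shifts in the values of the 10 genes was not tested.

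With SP600125 no gene of the set was called, against 0.592% of probe sets tested, and 1 of the 10, Ccn1, had an unadjusted p under 0.05 in limma. The set's median change was -0.04, beside 0 over all probe sets tested. In 2 of 10 genes every SP600125 signal lay below the control, against 11.5% of probe sets tested, and in 1 every signal lay above, against 11.0%. The pair that was lower was Ccn1, with signals of 235, 425 and 560.1 and a change of -0.56 ± 0.24 (adjusted p = 0.529 in limma), and Ccn2, with signals of 245, 455 and 452 and a change of -0.23 ± 0.24. The gene that was higher was Fhl2, with signals of 336, 330.2 and 397 and a change of 0.43 ± 0.27 (adjusted p = 0.742 in limma).

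Srf, Cnn2 and Vcl overlapped the control with SP600125. Cnn2 signals were 2393, 2785 and 2607, a change of -0.03 with a 95% interval of -0.34 to 0.28. Srf signals were 513, 642 and 920.5, a change of -0.12 with an interval of -0.53 to 0.29, and its sign turned to 0.01 on the 430 2.0 arrays alone. Vcl signals were 2408, 5559 and 4808, a change of -0.05 with an interval of -0.33 to 0.24. These intervals leave room for changes of moderate size in either direction. Tpm1 (0 ± 0.17), Tagln2 (0.06 ± 0.1), Myh9 (0.15 ± 0.11) and Actb (-0.09 ± 0.11) were also not called. The sign of Tpm1 turned with the processing, to -0.01 with arrays centred on their medians. Of the 8 primitive endoderm markers 5 fell with SP600125, with sums of 25792 to 27170 on the 430 2.0 arrays against 35446 to 35797.5 in the control. Of the 9 trophectoderm markers 1 fell, and 0 of 6 inner cell mass markers were called (limma; 1 at an unadjusted p under 0.05). Uterine and oviduct markers summed to 1618 to 1698, and fibroblast and smooth muscle markers to 134 to 171. Their part in the values of the 10 genes was not tested.

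With U0126, Ccn1 fell to 36.3% of the control and was the only gene of the set that passed the test. Of the 10 genes 1 was called, against 0.448% of probe sets tested. In 1 of the 10, Ccn1, every U0126 signal lay below the control, against 9.14% of probe sets tested, and in 3 (Tagln2, Myh9 and Actb) every signal lay above, against 14.0%. The median of the set was 0.06, the same as over all probe sets tested.

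Ccn1 signals were 342, 719 and 755 in the control and 178, 192 and 231 with U0126. Each U0126 sample was the lowest of its replicate number among the 4 groups. The change was -1.46 ± 0.24 (limma, adjusted p = 0.01), and -1.75 on the 430 2.0 arrays alone. Leaving out any of 3 of the 6 samples lost the call: the adjusted p was 0.0616 without control replicate 2 (-1.44), 0.0549 without control replicate 3 (-1.41) and 0.0564 without U0126 replicate 2 (-1.28). Without an intensity trend in limma's variance model the adjusted p was 0.127. The name of the probe set, 1416039_x_at, marks probes that may bind other transcripts. The next brightest Ccn1 probe set, 1438133_a_at, read 157, 256 and 354.5 in the control and 102, 89.3 and 134 with U0126, lower in all 3 samples, with a change of -1.1 ± 0.33 that did not pass (adjusted p = 0.175 in limma). The 2 dim Ccn1 probe sets had changes of -0.32 ± 0.56 and -0.43 ± 0.6, and the mean over all 4 was -0.83.

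Ccn2, the other matricellular gene, was not called. Its U0126 signals were 354, 333 and 626, on both sides of the control, with a change of -0.05 ± 0.24 and an interval of -0.55 to 0.45. Cnn2 read 2516, 4173 and 2923 with U0126 (0.25 ± 0.15, adjusted p = 0.533 in limma), and Srf 613, 847 and 828 (0.05 ± 0.19). The Srf value turned to -0.06 and the Fhl2 value of 0.08 ± 0.27 to -0.03 with arrays centred on their medians. Vcl (-0.17 ± 0.13) and Tpm1 (-0.09 ± 0.17) overlapped the control.

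The 3 genes above the control with U0126 are among the brightest of the set. Tagln2 read 4062, 7153 and 6944 (0.29 ± 0.1, adjusted p = 0.243 in limma), Myh9 5633, 22321.5 and 27809 (0.36 ± 0.11, adjusted p = 0.193) and Actb 17153, 42254 and 54517 (0.28 ± 0.11, adjusted p = 0.334). None passed. The median signal with U0126 was higher on the 430 2.0 arrays, whereas on 430A it was 132.7 against 147.4 in the control. The values of the brightest probe sets of these 3 genes moved with the scaling. With arrays centred on their medians the changes were 0.19, 0.26 and 0.17, and with quantile normalization 0.34, 0.29 and 0.12. Over all probe sets the same centring moved the U0126 calls from 47 higher and 74 lower to 32 and 172, those of SB203580 against U0126 from 144 and 227 to 285 and 161, and those of SP600125 against U0126 from 389 and 402 to 605 and 265. Of the 6 inner cell mass markers 2, Sox2 and Fgf4, rose with U0126, and the sums were 11091 to 11592 on the 430 2.0 arrays against 8175.5 to 9080.4 in the control. Of the 8 primitive endoderm markers 1, Gata6, fell with U0126 and all 8 had negative values (median -0.58, 6 at an unadjusted p under 0.05 in limma), with sums of 25163.5 to 31801 against 35446 to 35797.5. Blood markers summed to 352 to 417 and uterine and oviduct markers to 2054 to 2602. Their part in the values of the 10 genes was not tested.

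**Figure D2:**
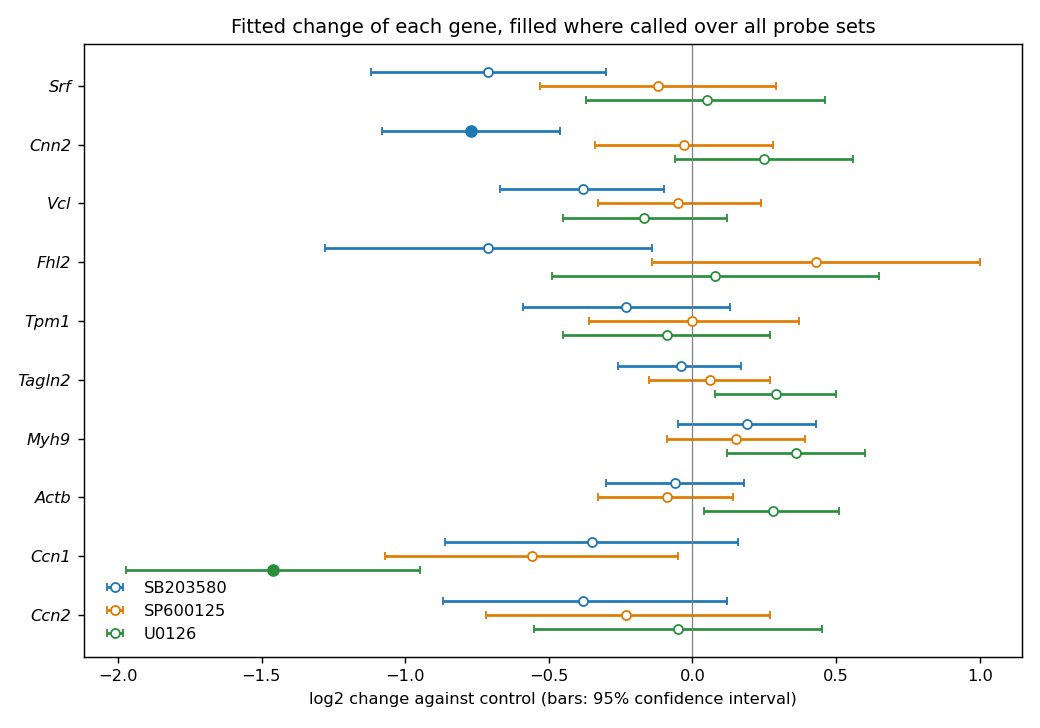
Fitted log2 change of each gene's brightest probe set against the control (x axis) for the 3 inhibitors, with 95% confidence intervals; filled points are called over all probe sets tested. Only Cnn2 with SB203580 (-0.77) and Ccn1 with U0126 (-1.46) are filled, and the SB203580 intervals of Srf, Vcl and Fhl2 lie below 0 although their adjusted p-values were 0.161, 0.32 and 0.375.

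Inhibitors were also compared with each other, since the 3 comparisons against the control share the control samples. Between SB203580 and SP600125, 1 of the 10 genes was called, against 0.788% of probe sets tested. That gene was Cnn2, lower with SB203580 by 0.75 ± 0.15 (limma, adjusted p = 0.0198), in 3 of 3 samples. The call was lost without any SB203580 sample or without SP600125 replicate 1 or 2, with changes of -0.77 to -0.63 and adjusted p from 0.077 to 0.13. Fhl2 differed by -1.14 ± 0.27 (adjusted p = 0.0631 in limma), the largest difference of the set here, with 115, 156 and 199 against 336, 330.2 and 397. It did not pass, although it did in limma with a stricter filter on dim probe sets (adjusted p = 0.0373).

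Between SB203580 and U0126, 2 of the 10 genes were called, against 1.37% of probe sets tested, and they pointed in opposite directions. Cnn2 was lower with SB203580, by 1.02 ± 0.15 (limma, adjusted p = 0.00191), and this call was kept without any 1 of the 6 samples. Ccn1 was higher with SB203580 by 1.11 ± 0.24 (limma, adjusted p = 0.0278), in 3 of 3 samples. Without any 1 SB203580 sample, or without U0126 replicate 2 or 3, the Ccn1 difference was 0.93 to 1.24 and its adjusted p 0.0505 to 0.145. Without probe sets that may cross-hybridise it was 0.42 (limma, adjusted p = 0.64), and as the mean over the 4 Ccn1 probe sets 0.29. Srf differed by -0.75 ± 0.19 (adjusted p = 0.0686 in limma, and 0.0484 with a stricter filter on dim probe sets) and Tagln2 by -0.33 ± 0.1 (adjusted p = 0.119).

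Between SP600125 and U0126 no gene of the set was called, against 2.93% of probe sets tested, and 3 had an unadjusted p under 0.05 in limma. Ccn1 was higher with SP600125 by 0.9 ± 0.24 by its brightest probe set (adjusted p = 0.0542 in limma). It passed under 5 of 12 settings, such as median centring (0.98, adjusted p = 0.0381). Of 6 omissions of a sample it passed in 1, that of U0126 replicate 1 (1.18, adjusted p = 0.017). The next brightest Ccn1 probe set read 0.62 ± 0.33 (limma, adjusted p = 0.35). The dim ones read -0.39 ± 0.56 and -0.37 ± 0.6. The lowest Ccn1 value over the settings was 0.19. Actb was lower by 0.37 ± 0.11 (adjusted p = 0.0894 in limma). In the order of fitted levels, Cnn2 was thus lowest with SB203580, and no pair among SP600125, control and U0126 passed the test. By its brightest probe set Ccn1 was lowest with U0126, followed by SP600125, SB203580 and control, and no pair among the last 3 passed the test.

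Probe sets of a gene did not always agree. Of the 10 genes 7 had several probe sets. For Srf, Myh9, Ccn1, Tagln2 and Actb the values moved with the choice of probe set. With SB203580 the Tagln2 probe sets read -0.04 ± 0.1, -0.22 ± 0.21 and 0.47 ± 0.62, brightest first, and none was called. The 3 tested Tpm1 probe sets all lay within -0.23 to 0.18 of the control in the comparisons with it. A second Actb probe set, 1419734_at, read 873, 659.8 and 2114 in the control, a wide spread, and had changes of 0.41 ± 0.37 with SB203580 and 0.83 ± 0.37 with SP600125 that were not called.

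**Figure D3:**
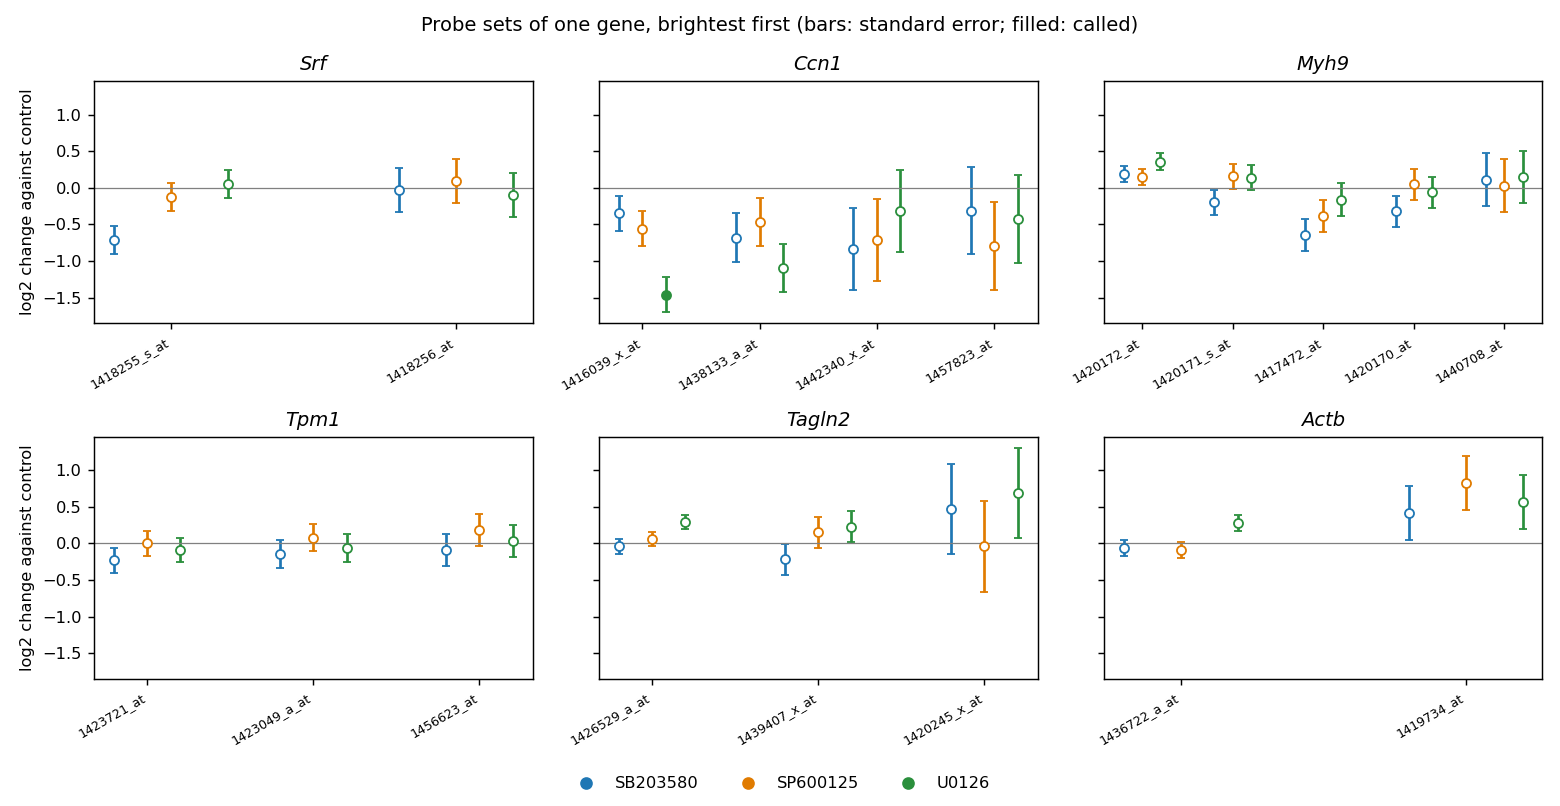
Log2 change against the control (y axis, bars are standard errors) for every tested probe set of the 6 genes with several informative ones, brightest first, coloured by inhibitor; a filled point is called. The brighter Srf probe set stands at -0.71 with SB203580 and the other at -0.03, and of the 4 Ccn1 probe sets only the brightest is filled, at -1.46 with U0126.

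The actin control probe sets give the signal along the Actb transcript. The ratio of 3′ to 5′ signal was 1.58 to 1.75 on all 430 2.0 arrays. On the 430A arrays of replicate 1 the SP600125 ratio was highest, at 3.66, then that of SB203580 at 2.81, of the control at 2.47 and of U0126 at 1.62. The 430B arrays gave the same order, with 3.22, 2.63, 2.19 and 1.49. The Gapdh control probe sets gave another order on 430A, with 4.03 in the control, then 3.46 with SP600125, 3.17 with SB203580 and 2.61 with U0126, and ran from 2.84 to 4.8 on the 430 2.0 arrays. In that replicate the Actb differences from the control were -0.35 with SB203580 and -0.39 with SP600125, and those of the Myh9 probe set 1417472_at were -1.46 and -1.3, whereas on the 430 2.0 arrays the same values lay between -0.25 and 0.21. The part of either ratio in these values was not tested. Cnn2 was lower with SB203580 on both kinds of array, with a replicate 1 difference of -0.65, and the part of either ratio in its values was not tested either.

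**Figure D4:**
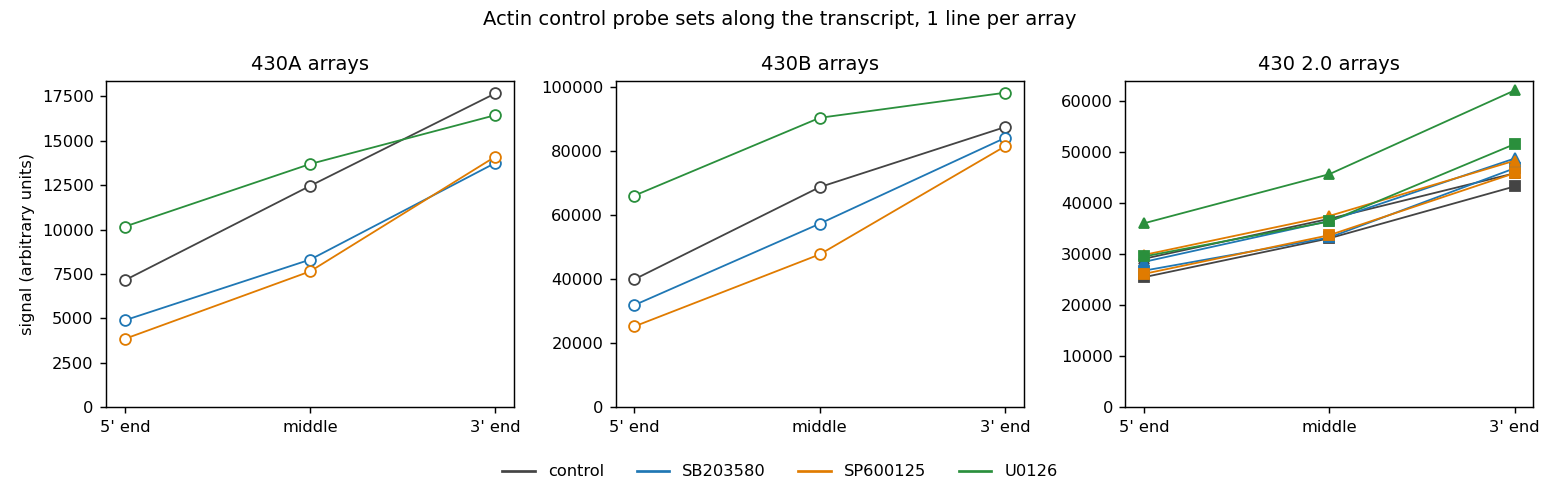
Signal in arbitrary units (y axis, from 0, different in each panel) of the Affymetrix actin control probe sets at the 5′ end, middle and 3′ end of the transcript (x axis), 1 line per array, coloured by group; open circles are replicate 1 and squares and triangles replicates 2 and 3. On 430A and 430B the SB203580 and SP600125 lines start lowest at the 5′ end, with 3′ to 5′ ratios up to 3.66, while the 430 2.0 lines run nearly parallel with ratios of 1.58 to 1.75.

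The wider pathway was read from 4 lists. Of 9 cofactors and partners of SRF, 8 were tested and 0 were called in any of the 6 comparisons, with 0, 1 and 1 at an unadjusted p under 0.05 for SB203580, SP600125 and U0126 against the control and 0, 2 and 1 between inhibitors. Against the control the largest limma statistics were those of Gata4, a partner of SRF in other tissues and a primitive endoderm factor, with SP600125 (-1.12 ± 0.33, adjusted p = 0.21) and of Mrtfb with U0126 (0.52 ± 0.18, adjusted p = 0.244). Mrtfa stood at -0.26 ± 0.2 with SB203580 against the control and at -0.59 ± 0.2 for SB203580 against U0126 (adjusted p = 0.187 in limma). Myocd, the heart and smooth muscle cofactor, was under the filter.

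Of 36 further actin and SRF-MRTF target genes, 30 were tested and 0 were called against the control with any inhibitor (limma; 1, 1 and 2 at an unadjusted p under 0.05). Their median change was -0.09 with SB203580, 0.04 with SP600125 and 0.02 with U0126, and 4 of 30 lay below and 2 of 30 above the control in every SB203580 sample, against 11.9% and 11.6% of probe sets tested. Actg1, the gamma-actin gene, stood at -0.01 ± 0.1 and Flna, filamin A, at 0 ± 0.2 with SB203580. Tagln and Cnn1, markers of smooth muscle, were under the filter. Between inhibitors, Tuft1 was higher with SB203580 than with U0126 (0.77 ± 0.13, limma adjusted p = 0.00771) and was the only call of the list. It was lost without SB203580 replicate 3 (0.7, adjusted p = 0.0538) and on the 430 2.0 arrays alone (0.71, adjusted p = 0.072).

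Immediate early genes, the other SRF branch, include 1 call in the opposite direction with SB203580, although the list had a median change of 0. Its tested genes had 4 positive and 3 negative SB203580 values. In every SB203580 sample 2 lay above and 2 below the control, against 11.6% and 11.9% of probe sets tested. Of 9 such genes 7 were tested, and Egr1, a zinc finger factor induced through ternary complex factors, rose with SB203580 by 1.86 ± 0.37 (limma, adjusted p = 0.0356). Control signals were 251.5, 134 and 137, and SB203580 signals 383, 754 and 897.5. SP600125 samples read 179, 293 and 504, and U0126 samples 96.4, 145 and 234. All SB203580 samples were above the control, and the call was lost without control replicate 2 or 3 or SB203580 replicate 2 or 3 (1.6 to 1.83, adjusted p 0.149 to 0.198). Egr1 was also higher with SB203580 than with U0126 (2.01 ± 0.37, limma adjusted p = 0.0109), a call lost without SB203580 replicate 2 (1.98, adjusted p = 0.0602) or replicate 3 (1.85, adjusted p = 0.0709). Fos stood at -1.33 ± 0.46 with U0126 (adjusted p = 0.244 in limma) and by 0 ± 0.46 with SB203580.

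YAP and TEAD genes and targets were read because Ccn1 and Ccn2 belong to them. Of 14 genes beside those, 12 were tested, and with each inhibitor 1 was called against the control, a different gene each time. The shares of all probe sets tested were 0.389% for SB203580, 0.592% for SP600125 and 0.448% for U0126. In that order 3, 2 and 4 had an unadjusted p under 0.05 in limma, with median changes of -0.08, -0.19 and -0.09. A call with 1 inhibitor does not show that the gene differed from its level with another. Amotl2, a YAP target that also binds YAP, fell with SB203580 by 1.17 ± 0.22 on the log2 scale (limma, adjusted p = 0.0236), from 1045, 1668 and 1599 to 348, 705 and 966. The call held only when SB203580 replicate 3 was the sample left out; in the other 5 omissions the adjusted p was 0.0685 to 0.142. Ajuba, a LIM protein that binds the kinases upstream of YAP, fell with SP600125 by 0.95 ± 0.19 (adjusted p = 0.0313 in limma), from 881, 1625 and 2022 to 352, 920.4 and 1201, and the call held only when SP600125 replicate 3 was left out (otherwise 0.0549 to 0.209).

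Amot, angiomotin, which holds YAP at junctions, fell with U0126 by 0.64 ± 0.13 (limma, adjusted p = 0.0444), from 1982, 4572 and 3376 to 1264.5, 2815 and 2261, and kept its call only without control replicate 3 (otherwise 0.0662 to 0.216). Between SB203580 and SP600125, 0 of the 12 genes were called, against 0.788% of probe sets tested. For SB203580 against U0126, 1 was called higher and 1 lower, against 1.37%. For SP600125 against U0126, 1 was called higher and 2 lower, against 2.93%. Ajuba was lower than with U0126 under both SB203580 (-1.23 ± 0.19, limma adjusted p = 0.00367) and SP600125 (-1.28 ± 0.19, adjusted p = 0.00152). Its low level was thus not particular to SP600125. Amot was higher with SB203580 than with U0126 (0.84 ± 0.13, limma adjusted p = 0.00381). Yap1 (0.5 ± 0.12) and Tead2 (-0.86 ± 0.21) differed between SP600125 and U0126 (limma, adjusted p = 0.0282 and 0.0306). Yap1 kept its call only without SP600125 replicate 3 or U0126 replicate 3, with adjusted p of 0.0606 to 0.141 in the other omissions, and Tead2 only without U0126 replicate 3, with 0.061 to 0.137 otherwise. Neither Yap1 nor Tead4, the trophectoderm TEAD gene, was called against the control.

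Genes whose pattern was most like that of Srf were found by Pearson's correlation over the 12 samples, with each array type centred on its own mean, among 12613 genes. The 5 highest were Phf11d (0.93), Ing1 (0.93), Gtpbp1 (0.92), 4930447A16Rik (0.92) and Wls (0.92). They are the top of a long list over 12 samples in 4 groups and carry no test. Wls, which escorts Wnt proteins to the cell surface, read 586, 793 and 774 in the control and 288, 197 and 301 with SB203580. Its change was -1.42 on the log2 scale (limma, adjusted p = 0.00691). Since Srf was lowest with SB203580, choosing genes by likeness to Srf largely fixed this direction, and the value is a description only. The others of the 5 had SB203580 changes of -0.76 to -0.28 and were not called (limma, adjusted p 0.185 to 0.557). Within the set, Cnn2 (0.77), Fhl2 (0.73) and Vcl (0.57) were most like Srf, at ranks 144, 235 and 900, and Ccn1 (-0.23) and Myh9 (-0.02) least.

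The CArG boxes printed above can be set against these values. With SB203580 the 4 genes with a box in a window had changes of -0.77 (Cnn2), -0.71 (Srf), -0.71 (Fhl2) and -0.38 (Vcl). The 4 with a window and no box had -0.35 (Ccn1), -0.23 (Tpm1), -0.04 (Tagln2) and 0.19 (Myh9). These are the brightest probe sets. By dimmer ones Ccn1 read -0.68 and Myh9 -0.64, both without a box in the window, and Srf read -0.03. Among the 155 other tested genes with a box, the median SB203580 change was -0.04. Of these 0 were called and 21 had an unadjusted p under 0.05 in limma. Over the 10196 tested genes with a window the median was 0.01, 0.618% were called and 1175 had an unadjusted p under 0.05. The Ccn1 window held the GGAATG hexamer, as did those of 1459 tested genes outside the set. With U0126 0.822% of these were called, against 0.677% of the tested genes with a window.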

How the data were processed

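Total RNA from 12 blastocyst samples was read on 16 Affymetrix arrays. The deposited values are intensity per probe set on a linear scale, and their 2 percent trimmed mean is 500 on every array. How background was corrected and probes were combined, and with which software, is not given in the sources used here. Arrays 430A and 430B of a replicate 1 were joined as 1 sample, with the 430A value for the 164 probe sets on both. Probe sets were named from the platform annotation, with symbols updated through gene identifiers to RefSeq: of 45037, 34945 named 1 gene, 932 several and 9160 none. The arrays held 22690 (430A), 22575 (430B) and 45101 (430 2.0) probe sets.

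Intensity was converted to log2(signal + 12.6), the constant being the 20th percentile of the 430 2.0 values. Probe sets with a mean 430 2.0 signal of at least 42.9, the 40th percentile, were tested. limma 3.58.1 (R 4.3.3) fitted group and array type over all 12 samples, with an intensity trend in eBayes, 7 residual degrees of freedom, two-sided tests and Benjamini-Hochberg adjustment over 27022 probe sets. The script was checked on simulated data. Errors are standard errors and intervals 95%.

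Alternatives were the constant, the filter, median centring, quantile normalization, a replicate block, the 430 2.0 arrays alone, only the compared groups, no trend, other probe set choices (no _x_at or _s_at probe sets; the mean over a gene's probe sets, called if any of them is) and leaving out each sample. The members, lists and tests were chosen with earlier results of these data known. From each list the genes called were named, and otherwise those with the 2 largest statistics against the control. Actg1, Flna, Fos, Mrtfa, Tead4, Sox2, Fgf4 and Gata6 were named beyond this rule, after their values were seen. Promoter windows came from RefSeq (GRCm38.p6). Actb and Ccn2 had no window. The result of 1 further gene list is not reported here.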

Additional observations from a re-analysis of the deposited data

How the results depend on the processing

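Of 720 values of the 10 genes under the alternative settings, 681 kept their direction and their side of the threshold, 10 lost a call, 7 gained one and 22 turned sign. Leaving out 1 sample at a time gave 321, 19, 1 and 19 of 360. No value that turned sign was called on either side. The number of genes called with SB203580 against the control (1) was 0 on the 430 2.0 arrays only, 0 without the trend and 0 to 0 on leaving out a sample. With U0126 against the control (1) it was 0 without the trend, 0 without _x_at and _s_at probe sets, and 0 to 1 on leaving out a sample. For SB203580 against SP600125 (1) it was 2 with the filter at the 60th percentile, 0 on the 430 2.0 arrays only, 0 without the trend, and 0 to 1. For SB203580 against U0126 (2) it was 3 with the filter at the 60th percentile, 1 with the compared groups only, 0 without the trend, 1 without _x_at and _s_at probe sets, and 1 to 2. For SP600125 against U0126 (0) it was 1 with the filter at the 60th percentile, median centring, quantile normalization, the replicate block and the 430 2.0 arrays only, and 0 to 1.

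The median change of the 10 genes with U0126 (0.06) was -0.04 with median centring, 0.02 with quantile normalization, 0.16 on the 430 2.0 arrays only, 0.01 without _x_at and _s_at probe sets, 0.03 with the mean of probe sets, and 0.06 to 0.16 on leaving out a sample. For SB203580 against U0126 it ran from -0.39 to -0.23. For SP600125 against U0126 (-0.17) it was -0.09 with median centring, -0.07 on the 430 2.0 arrays only, -0.04 without _x_at and _s_at probe sets, -0.02 with the mean of probe sets, and -0.19 to -0.06 on leaving out a sample.

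Over all probe sets, in the order SB203580, SP600125 and U0126 against the control, then SB203580 against SP600125, SB203580 against U0126 and SP600125 against U0126, the fit called 35, 82, 56, 116, 197 and 345 on the 430 2.0 arrays only, and 1, 8, 2, 23, 36 and 130 without the trend. With the compared groups only, U0126 against the control gave 60 and the last pair of comparisons 177 and 410. U0126 against the control gave 187 with the filter at the 60th percentile and 204 with median centring. Leaving out a sample gave 33 to 79, 76 to 91, 53 to 118, 99 to 142, 145 to 321 and 364 to 715.

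Sign turned as follows. On the 430 2.0 arrays only, Actb with SB203580 was 0.09, and Srf, Tpm1 and Actb with SP600125 were 0.01, -0.19 and 0.06. With the mean of probe sets, Tagln2, Myh9 and Actb with SB203580 were 0.07, -0.17 and 0.17, Actb with SP600125 0.37 and Srf with U0126 -0.03. Between SB203580 and SP600125 the same 3 genes were 0.01, -0.17 and -0.19, and Srf between SP600125 and U0126 was 0.01. With median centring, Tpm1 with SP600125 was -0.01, and Srf and Fhl2 with U0126 were -0.06 and -0.03. With quantile normalization Actb between SB203580 and SP600125 was -0.01. Without _x_at and _s_at probe sets Srf was 0.09 with SP600125, -0.1 with U0126, 0.07 for SB203580 against U0126 and 0.19 for SP600125 against U0126, and Ccn1 -0.2 for SB203580 against SP600125. On leaving out a sample, against the control Actb ran from -0.15 to 0.07 with SB203580. Cnn2, Tpm1 and Actb ran from -0.14 to 0.09, -0.22 to 0.2 and -0.19 to 0.04 with SP600125, and Fhl2, Tpm1 and Ccn2 from -0.14 to 0.23, -0.31 to 0.11 and -0.24 to 0.23 with U0126. Between SB203580 and SP600125, Myh9 ran from -0.01 to 0.11 and Actb from -0.04 to 0.1. Tpm1 between SB203580 and U0126 ran from -0.22 to 0.04. Between SP600125 and U0126, Vcl ran from -0.0 to 0.25 and Ccn2 from -0.46 to 0.01. The cause of these shifts was not tested.

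Among the other genes named, limma's calls were lost without the trend for Egr1 (adjusted p = 0.275 with SB203580 and 0.12 against U0126), Amotl2 (0.261), Tuft1 (0.138), Yap1 (0.172), Tead2 (0.106), Wls (0.0931), Ajuba (0.265 with SP600125, 0.0889 for SB203580 against U0126) and Amot (0.257 with U0126, 0.106 for SB203580 against U0126). The 430 2.0 arrays only ended those of Amotl2 (0.238), Tuft1 (0.072), Yap1 (0.21), Tead2 (0.19), Ajuba with SP600125 (0.284) and Amot with U0126 (0.182), and the compared groups only those of Egr1 with SB203580 (0.0554), Yap1 (0.0856), Tead2 (0.0715) and Amot with U0126 (0.193). A constant of 1 ended those of Egr1 (0.0603) and Amot (0.0534) against the control, no filter that of Amot (0.0565) and median centring that of Tead2 (0.0535).

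The replicate numbers did not pair the samples: the differences between replicates 2 and 3 correlated at 0.018 to 0.088 between groups. With the replicate block, Ccn1 between SP600125 and U0126 was 0.9 (limma, adjusted p = 0.0464), and no other call on the 10 genes changed. Calls over all probe sets were then 121, 183, 148, 243, 418 and 916.

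The design has 3 samples a group on 2 array types, and signals near 12.6, such as those of the second Vcl probe set, carry little information.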
